A study of Sus scrofa with 24 samples.

Results

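The enzymes that break down leucine, isoleucine and valine were examined in pig subcutaneous adipose tissue. The list held 10 genes, and members were the array probes whose gene name in the files, or whose RefSeq accession, gave one of these symbols. That rule found 18 of the 43603 non-control probes, for 6 of the 10 genes and of 5589 genes named on the array: 3 for BCKDHA, 4 for BCKDHB, 2 for DBT, 2 for IVD, 2 for ALDH6A1 and 5 for PCCB. BCAT2 had 2 probes named only by the description in the files, which are given beside the others but not counted with them. No probe was assigned to HIBADH, MCCC1 or PCCA, and these genes were not analysed here. All 18 probes passed the filter on dim probes, which kept 28606 probes in all.

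The pigs weighed 115 kg and came from lines selected on residual feed intake, the feed eaten beyond what growth and maintenance predict. The low line was fed ad libitum (RFIneg), the high line was fed ad libitum (RFIpl), and further pigs of the high line were restricted to what low-line pigs were fed (RFIplR). Each group had 8 pigs with 1 Cy3-labelled array per pig, 24 arrays in all. Residual feed intake, feeding level and line were the only group labels; how the pigs were related was not given in the sources used here. The tissue was bulk adipose tissue, so fewer cells of a type and less RNA per cell cannot be told apart.

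Branched-chain amino acids are first transaminated by BCAT2, the mitochondrial aminotransferase, to branched-chain keto acids. The branched-chain keto acid dehydrogenase complex then commits the carbon to oxidation: BCKDHA and BCKDHB form its E1 decarboxylase, DBT is its E2 transacylase core, and a shared E3 subunit, DLD, reoxidises it. The branches then part: IVD acts on the leucine product, ALDH6A1 on the last steps of valine, and the carboxylase of PCCA and PCCB on the propionyl-CoA that isoleucine and valine leave. Mature adipocytes are known to run this pathway actively and to use its acetyl-CoA for lipid synthesis.

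Values are log2 of the processed spot intensity minus the 75th percentile of that array, so 0 is the level of that percentile, and levels of different probes are not compared. The arrays fell into 17 bright ones, with a 75th percentile of 416 to 665 intensity units, and 7 dim ones, at 69.5 to 94.6. The dim arrays were RFIneg 1 and 7, RFIpl 5 and 6 and RFIplR 2, 4 and 6. The share of probes well above background was 52.2% to 79.9% on bright arrays and 43.1% to 61.5% on dim ones. Levels are therefore given over the bright arrays (6 RFIneg, 6 RFIpl, 5 RFIplR), and differences are given from the fit without a block and with brightness class as a block. Over the 7 measured genes of the 15 skeletal muscle markers, the summed signal in multiples of the 75th percentile was 1447 on RFIpl 2, against at most 43.5 on any other array. Over 3 of 9 keratinocyte markers (SFN, DSP and DSG1) it was 58.5 on RFIpl 7 and 21.1 on RFIpl 8, against at most 1.16 on all arrays of RFIneg and RFIplR. The adipocyte markers with the highest mean signal, FABP4 and ADIPOQ, were well above background on every array.

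The probes of BCKDHA, BCKDHB and ALDH6A1 are shown because ALDH6A1 holds the calls that were kept most often and because BCKDHA and BCKDHB, subunits of 1 enzyme, have overlapping or identical probes. Each is a 60-base oligonucleotide copied from the scanner files, written 5′ to 3′ as deposited, and capitals mark a stretch of at least 20 bases shared with another probe of the same gene.
BCKDHA A_72_P441234: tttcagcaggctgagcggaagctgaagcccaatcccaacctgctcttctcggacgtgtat
BCKDHA A_72_P087911: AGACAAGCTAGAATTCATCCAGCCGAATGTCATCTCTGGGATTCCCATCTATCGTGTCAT
BCKDHA A_72_P571909: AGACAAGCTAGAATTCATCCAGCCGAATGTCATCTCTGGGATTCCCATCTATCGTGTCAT
BCKDHB A_72_P693282: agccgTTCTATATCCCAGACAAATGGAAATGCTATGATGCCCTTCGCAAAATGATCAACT
BCKDHB A_72_P635404: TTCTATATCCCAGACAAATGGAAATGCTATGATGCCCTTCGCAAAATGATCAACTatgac
BCKDHB A_72_P441239: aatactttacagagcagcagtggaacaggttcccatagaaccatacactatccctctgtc
BCKDHB A_72_P676234: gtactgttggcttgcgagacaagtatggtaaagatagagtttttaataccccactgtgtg
ALDH6A1 A_72_P709190: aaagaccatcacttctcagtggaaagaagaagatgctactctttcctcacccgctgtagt
ALDH6A1 A_72_P715583: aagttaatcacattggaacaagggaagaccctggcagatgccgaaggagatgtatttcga
The BCKDHA probes A_72_P087911 and A_72_P571909 are the same sequence in all 60 bases, and their difference had an SD of 0.08 over the 24 arrays. That SD measures the error between spots of the same array, not the technical error between arrays. The first pair of BCKDHB probes shares 55 bases, and 2 PCCB probes share 57, so these pairs are not separate measurements of their transcript.

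Low-line pigs and restricted high-line pigs had more transcript of ALDH6A1 than freely fed high-line pigs once the brightness of the arrays was taken into account, and low-line pigs also had more DBT, a call that was lost when slide was blocked as well (adjusted p = 0.066). Without that block, 0 of the 18 probes passed the threshold in any of the 3 comparisons. BCKDHB, IVD, PCCB and BCAT2 lay on the same side by 0.26 to 0.99 log2 units in RFIneg against RFIpl but did not pass, and BCKDHA differed by no more than 0.08 at any of its 3 probes. No member probe passed between RFIneg and RFIplR.

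In RFIneg against RFIpl, the limma fit without a block called 0 of 18 member probes, where it called 0.206% of all kept probes; 7 of the 18 had an unadjusted p under 0.05, against 6.88% of all probes. With brightness class as a block it called 4 of 18, all higher in RFIneg, where it called 6.6% of all kept probes with 4.29% higher and 2.31% lower in RFIneg. The 4 were both probes of ALDH6A1 and both of DBT. Over the 18 probes the median difference was 0.66 and 16 lay above 0, while the median of all kept probes was -0.01 and 49.0% lay above 0.

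In RFIplR against RFIpl, 0 of 18 were called without a block, where 0.297% of all kept probes were; 3 of the 18 had an unadjusted p under 0.05, against 8.2% of all probes. With brightness as a block 3 of 18 were called, all higher in RFIplR, where 10.3% of all kept probes were called, 5.8% higher and 4.52% lower. They were both probes of ALDH6A1 and 1 of DBT. The median over the 18 probes was 0.31 without the block and 0.45 with it, with 15 above 0 in either fit, where 51.4% and 47.1% of all kept probes were above 0.

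In RFIneg against RFIplR, 0 of 18 were called in either fit, where 0% of all kept probes were called in either. None of the 18 had an unadjusted p under 0.05, against 2.11% of all kept probes without a block and 9.48% with it. The median over the 18 probes was 0.33 without the block and 0.24 with it. These comparisons share groups, so their values are given side by side and are not independent of each other. Whether the line difference at free feeding differed from that at one feeding level was not tested.

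**Figure D1:**
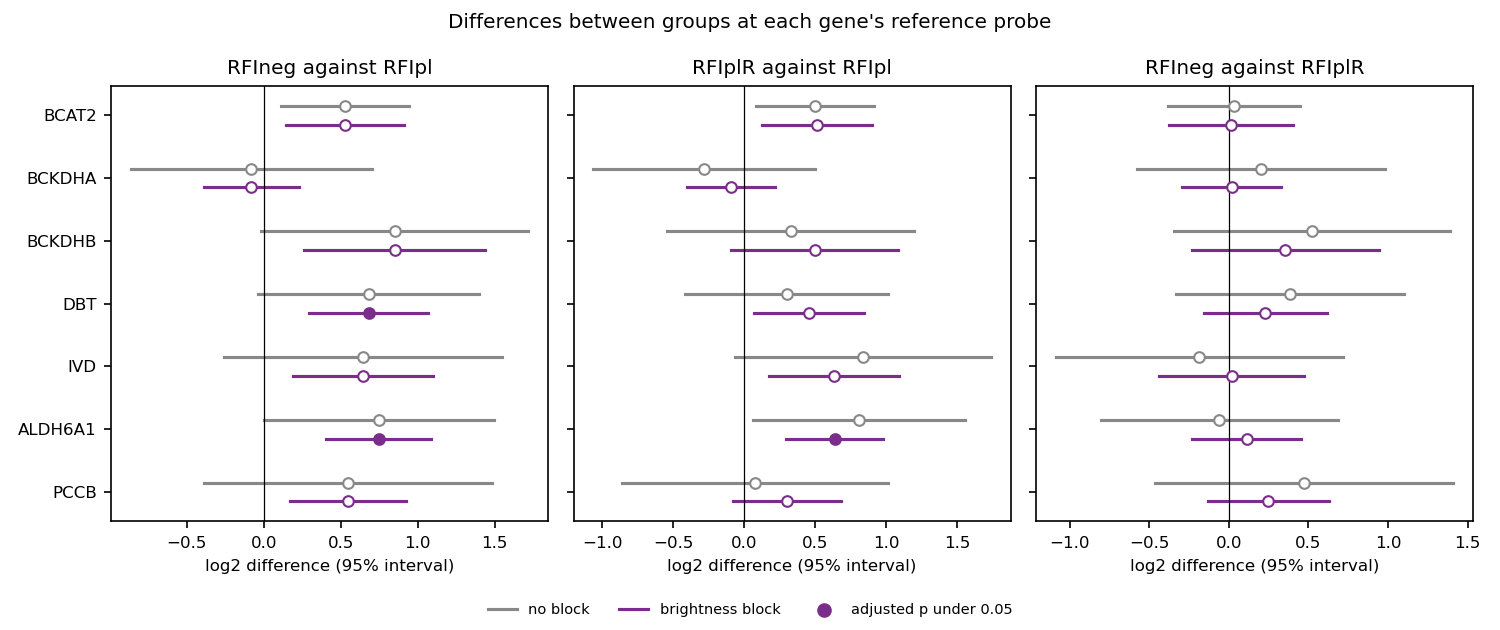
Log2 differences between groups with 95% intervals for 7 genes, each at its brightest probe on average, from limma without a block (grey) and with brightness class as a block (purple); filled points have an adjusted p under 0.05. ALDH6A1 is filled in both comparisons with RFIpl, DBT in RFIneg against RFIpl, and BCKDHA sits within 0.1 of 0 in the blocked fit of each comparison.

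BCAT2, the enzyme that starts the pathway, had levels over the bright arrays of 3.18, 3.81 and 4.31 (lowest, median, highest) in RFIneg. They were 2.65, 3.30 and 3.88 in RFIpl, and in RFIplR the 5 values were 3.34, 3.58, 4.04, 4.14 and 4.18. RFIpl 1 and 4 were the lowest arrays, and 3 of 6 RFIneg and 3 of 5 RFIplR arrays lay above every RFIpl array. BCAT2 was higher by 0.53 ± 0.19 (SE) in RFIneg than in RFIpl, with an adjusted p of 0.089 with the block and 0.487 without. The difference of RFIplR from RFIpl was 0.51 ± 0.19, with an adjusted p of 0.080 with the block. The other BCAT2 probe gave 0.26 and 0.13 in the same comparisons. Neither probe carries the gene's symbol in the files, so their identity rests on the description alone.

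BCKDHA, the alpha subunit of the E1 decarboxylase, had levels of 1.73, 2.03 and 2.37 in RFIneg and 1.97, 2.09 and 2.24 in RFIpl. In RFIplR the 5 bright arrays gave 1.49, 1.99, 2.06, 2.17 and 2.73. The 3 groups overlapped throughout, and the RFIplR arrays spread most, with an SD of 0.44 against 0.22 in RFIneg and 0.10 in RFIpl. The blocked difference of RFIneg from RFIpl was -0.08 with a 95% interval of -0.39 to 0.23. For RFIplR against RFIpl it was -0.10 (-0.41 to 0.21). The former interval allows a BCKDHA level up to 0.39 lower or 0.23 higher in RFIneg, and it does not reach 0.66, the median over the member probes. Without the block that interval was -0.86 to 0.70, which includes 0.66. That median takes in the BCKDHA probes themselves and has no interval of its own, so this is not a test of BCKDHA against the other genes.

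BCKDHB, the beta subunit of the same decarboxylase, had levels of 2.21, 2.99 and 3.16 in RFIneg and 0.96, 1.53 and 2.97 in RFIpl. In RFIplR the 5 values were 1.93, 2.07, 2.43, 2.81 and 3.09. RFIpl 1, 2, 4 and 8 stood at 1.03, 1.17, 0.96 and 1.90, below every bright array of the other groups, while RFIpl 3 at 2.97 lay among the RFIneg pigs. All 4 probes were higher in RFIneg than in RFIpl, by 0.84 to 0.99, and none passed the threshold with the block (adjusted p 0.053 to 0.088). For RFIplR against RFIpl the 4 probes gave 0.45 to 0.51, with adjusted p of 0.28 to 0.44. Probe A_72_P441239, which gave the 0.51 and the adjusted p of 0.053, was well above background on 5 of 8 RFIplR arrays and 0 of the 3 dim ones. Probe A_72_P676234, which gave the 0.45 and the 0.99, was so on 7 of 8 RFIplR arrays. The SD within RFIpl was 0.83, the largest of the 3 groups over the bright arrays.

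DBT, the transacylase core, had levels of 0.95, 1.59 and 1.80 in RFIneg and 0.08, 0.64 and 1.54 in RFIpl. In RFIplR the 5 values were 0.93, 0.94, 1.06, 1.45 and 1.68. As with BCKDHB, RFIpl 1, 2 and 4 were the lowest arrays (0.31, 0.08 and 0.43), 4 of 6 RFIpl arrays lay below every RFIneg array, and RFIpl 3 lay among the latter. DBT rose by 0.68 ± 0.19 (SE; 95% interval 0.30 to 1.06) in RFIneg against RFIpl with brightness as a block (limma, adjusted p = 0.030), and its other probe by 0.66 (adjusted p = 0.033). Blocking on slide as well, the first probe stood at 0.78 (adjusted p = 0.066). Without the block the adjusted p was 0.785 for the first probe and 0.933 for the second. With the block and with 1 array left out in turn, the first probe remained past the threshold in 16 of 24 fits, and was lost without RFIneg 2, 4, 5, 6 or 7 or RFIpl 1, 2 or 4, with the highest adjusted p of 0.068. The second was lost in 10 fits, without any of these or without RFIneg 3 or RFIpl 6, with the highest adjusted p of 0.071. In RFIplR against RFIpl the blocked difference was 0.45 at the first probe (adjusted p = 0.125) and 0.58 at the second (adjusted p = 0.045). This last call was kept in 9 of 24 such fits, and RFIpl 1, 2 and 4 were among the 15 arrays without which it was lost.

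The contrast between the subunits of 1 complex was taken within each array, a choice made with the values known. Over the bright arrays BCKDHB minus BCKDHA was 0.77 ± 0.42 (SD, n = 6) in RFIneg and -0.36 ± 0.82 (n = 6) in RFIpl. The difference of 1.12 had an exact permutation p of 0.015 (two-sided), or 0.068 after adjustment over the 9 contrasts computed. For DBT minus BCKDHA the difference between the same groups was 0.84, with an exact permutation p of 0.011 and an adjusted p of 0.068. BCKDHB minus DBT differed by 0.28 (exact permutation p = 0.216). None of the 9 passed after adjustment, and without RFIpl 2 the first 2 differences were 1.01 and 0.71.

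IVD, which opens the leucine branch, had levels of -0.40, 0.14 and 0.30 in RFIneg and -1.08, -0.69 and 0.08 in RFIpl. In RFIplR the 5 values were -0.12, -0.10, 0.65, 0.70 and 0.83. Of the 6 bright RFIpl arrays, all but RFIpl 3 lay below every bright array of both other groups. IVD was higher by 0.65 ± 0.22 (SE) in RFIneg and by 0.63 ± 0.22 in RFIplR than in RFIpl, with blocked adjusted p of 0.077 and 0.069. In a fit on the bright arrays alone RFIplR exceeded RFIpl by 1.03 (adjusted p = 0.026), while on the dim arrays it was lower by a difference of -0.23 (adjusted p = 0.753). The second IVD probe gave 0.78 and 0.82 in the blocked fit, neither past the threshold.

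ALDH6A1, the methylmalonate semialdehyde dehydrogenase of valine breakdown, had levels of -0.25, 0.03 and 0.16 in RFIneg and -1.43, -0.92 and 0.13 in RFIpl. In RFIplR the 5 values were -0.34, -0.08, -0.06, -0.05 and 0.18. RFIpl 1, 2, 4, 7 and 8 lay below every bright array of the other 2 groups, and RFIpl 3 lay among them. On the dim arrays too both RFIpl values were the lowest, at 0.74 and 0.82, against 0.998 and 1.67 in RFIneg and 0.95, 1.14 and 1.35 in RFIplR. With brightness as a block ALDH6A1 rose by 0.75 ± 0.16 (SE; 95% interval 0.41 to 1.09) in RFIneg against RFIpl (limma, adjusted p = 0.011), and its second probe rose by 0.79 (adjusted p = 0.0069). In RFIplR against RFIpl the probes rose by 0.64 ± 0.17 (adjusted p = 0.018) and 0.71 (adjusted p = 0.0089). RFIneg and RFIplR differed by 0.11 at the first probe, with a 95% interval of -0.23 to 0.45.

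The blocked ALDH6A1 calls held with any 1 of the 24 arrays left out, with a highest adjusted p of 0.028 for the first probe in RFIneg against RFIpl and 0.042 in RFIplR against RFIpl. Blocking on slide as well as brightness, the adjusted p of the first probe was 0.046 and 0.034. Without the block neither comparison passed (adjusted p 0.726 and 0.539), at differences of 0.75 and 0.81. On the bright arrays alone the second probe passed in RFIneg against RFIpl (0.88, adjusted p = 0.048), while the first stood at 0.81 (adjusted p = 0.057). For RFIplR against RFIpl neither passed there, at 0.76 (adjusted p = 0.058) and 0.77 (adjusted p = 0.051).

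PCCB, the beta subunit of propionyl-CoA carboxylase, had levels of 4.73, 5.40 and 5.66 in RFIneg and 3.91, 4.84 and 5.39 in RFIpl. In RFIplR the 5 values were 4.70, 4.75, 5.14, 5.37 and 5.53. RFIpl 2, the array with muscle transcripts, was the lowest, and the other RFIpl arrays overlapped both groups apart from RFIpl 4 at 4.28. All 5 probes were higher in RFIneg than in RFIpl, by 0.52 to 0.66, with blocked adjusted p of 0.067 to 0.101. Between RFIplR and RFIpl they gave 0.15 to 0.35 with the block, and none passed.

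**Figure D2:**
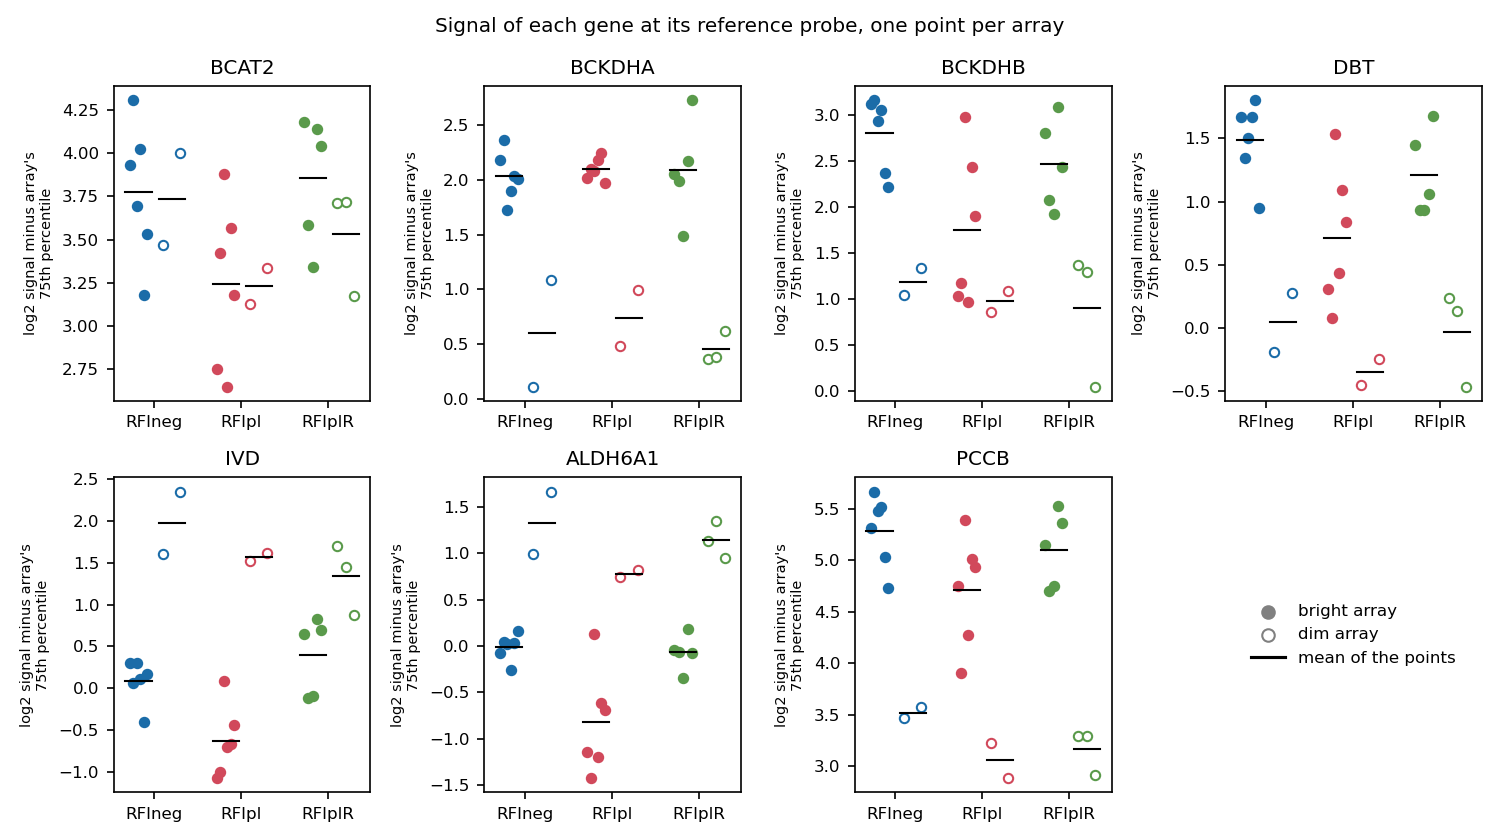
Log2 signal relative to each array's 75th percentile for 7 genes, each at its brightest probe on average, with 1 point per array, filled for the 17 bright and open for the 7 dim arrays, with a line at the mean of each set. Dim arrays stand lower for BCKDHA, BCKDHB, DBT and PCCB and higher for IVD and ALDH6A1; among the bright RFIpl arrays RFIpl 3 is the highest for 6 of the 7 genes.

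Over the bright arrays RFIpl had the largest SD of the 3 groups for BCAT2, BCKDHB, DBT, ALDH6A1 and PCCB, and RFIplR had it for BCKDHA and IVD. RFIpl 3 was the highest bright RFIpl array for 6 of the 7 genes, all but BCKDHA, and RFIpl 1, 2 and 4 were the 3 lowest for 5 of them. RFIpl 3 also had the highest summed adipocyte signal of its group, 1401 in multiples of the 75th percentile, against 874 to 1125 on the other bright RFIpl arrays. Leaving out RFIpl 3 raised the blocked count in RFIneg against RFIpl from 4 to 14 of 18 probes, and in RFIplR against RFIpl from 3 to 6. The share of all kept probes called moved too, from 6.6% to 11.9% and from 10.3% to 12.8%. Leaving out RFIneg 2, 4, 5, 6 or 7 or RFIpl 1, 2 or 4 lowered the first count to 2, and leaving out RFIneg 8 raised it to 7. The share of all kept probes called was then 3.52% to 5.71%, and 6.98% without RFIneg 8. For the second, 14 of the 24 arrays, when left out singly, lowered the count to 2. In those fits 6.97% to 10.9% of all kept probes were called. With RFIpl 2 left out the 2 remaining calls were both ALDH6A1, with adjusted p of 0.020 and 0.015, while the DBT probes stood at 0.059 and 0.061.

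The brightness of an array moved probes in both directions, also within 1 gene. Between dim and bright arrays 8 of the 20 probes were higher on the dim ones and 12 lower, from -2.24 to 1.91. The first BCKDHA probe was lower by a difference of -1.50 and the twin probes higher by 0.59 and 0.68. Within the bright class the median difference over the 6 genes was 0.75 in RFIneg against RFIpl, and within the dim class, with 2 arrays a group, it was 0.40. For RFIplR against RFIpl these medians were 0.61 and 0.02. Within the 3 scan days the medians were 0.56, -0.15 and 1.37 in RFIneg against RFIpl and 0.24, 0.07 and 1.38 in RFIplR against RFIpl. Day 2 held all 7 dim arrays and day 3 held 1 array per group. Within the 5 slides that held both groups they ran from -0.03 to 1.37 in the first of these comparisons, and from -1.47 to 1.38 in the second, where the lowest came from a slide with 2 dim RFIplR arrays and 1 bright RFIpl array.

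**Figure D3:**
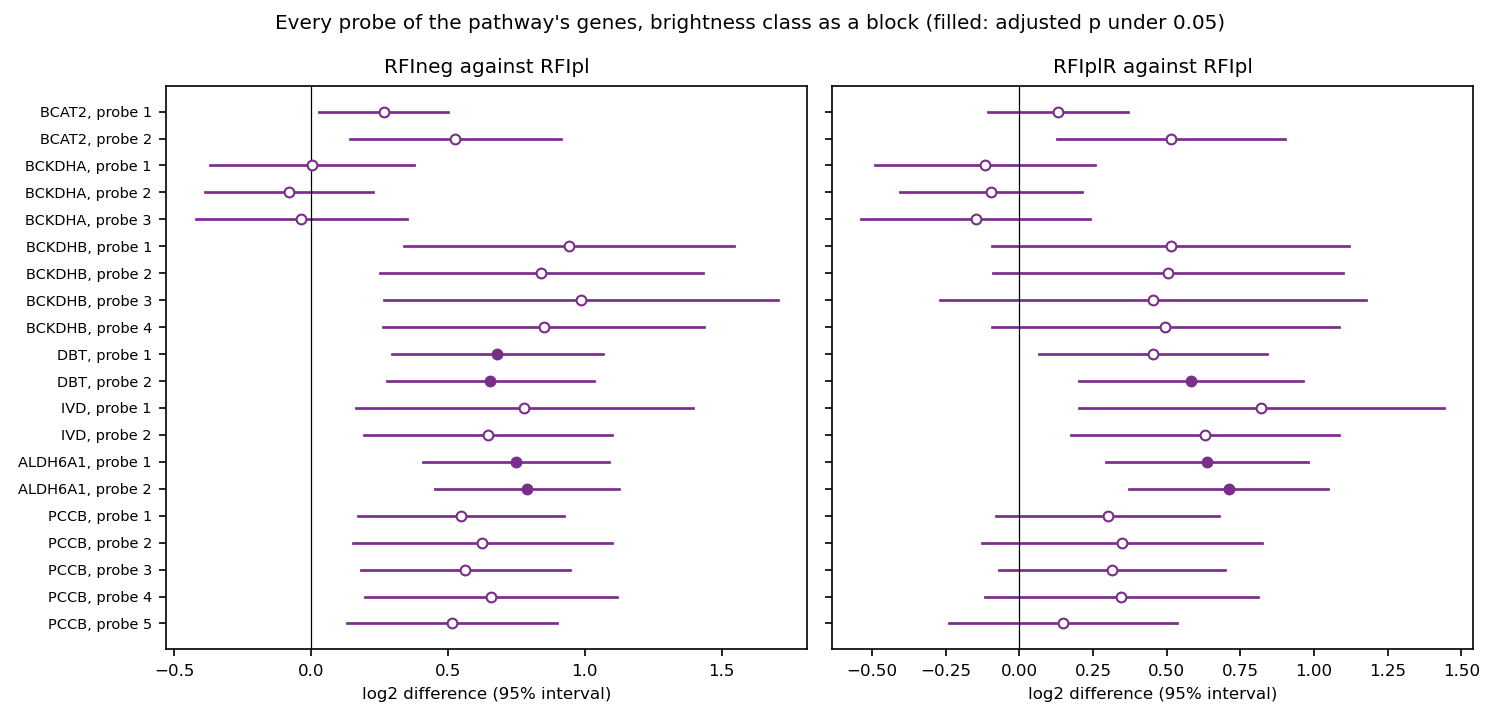
Log2 differences with 95% intervals from limma with brightness class as a block, for all 20 probes of 7 genes, in RFIneg against RFIpl (left) and RFIplR against RFIpl (right); filled points have an adjusted p under 0.05. At the left the 4 BCKDHB probes lie between 0.84 and 0.99 and the 3 BCKDHA probes near 0, while the 2 BCAT2 probes stand apart, at 0.53 and 0.26.

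At the probe with the highest mean of each gene, the genes other than BCKDHA rose and dropped together from array to array. Over the 17 bright arrays the 15 pairs among BCAT2, BCKDHB, DBT, IVD, ALDH6A1 and PCCB had Pearson's r of 0.64 to 0.90 and Spearman's rho of 0.53 to 0.88, and all 15 passed after adjustment over 21 pairs (permutation test; highest adjusted p 0.0079 for r). The 6 pairs with BCKDHA had r of 0.04 to 0.31, and none passed (permutation test, lowest adjusted p 0.306). These rest on 1 BCKDHA probe, and the twin probes of that gene were not correlated. That probe had an SD of 0.26 over the bright arrays, against 0.35 for the twins and 0.48 to 0.74 for the probes of the other genes used here. Whether the low r belongs to the gene or to this probe was not tested. The closest pair was BCKDHB and PCCB, at r = 0.90 and rho = 0.88, with a permutation p of 1e-05, the smallest the resampling can give. Within groups, after subtracting each group mean, the 15 pairs kept r of 0.48 to 0.85, and the 6 pairs with BCKDHA had 0.15 to 0.43. Without the 2 arrays farthest from the median of the first gene, all among RFIpl 1, 2 and 4, the 15 pairs had r of 0.42 to 0.93. Without RFIpl 2 they had 0.61 to 0.91. All pairs come from the same arrays and share their scaling. The share of all probe pairs on the array with r this high was not computed. Genes outside the list reached a median r of up to 0.90 with the 6 member genes. The permutations moved arrays across the 3 groups, so their p also takes in differences between groups. The r within groups was not tested.

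**Figure D4:**
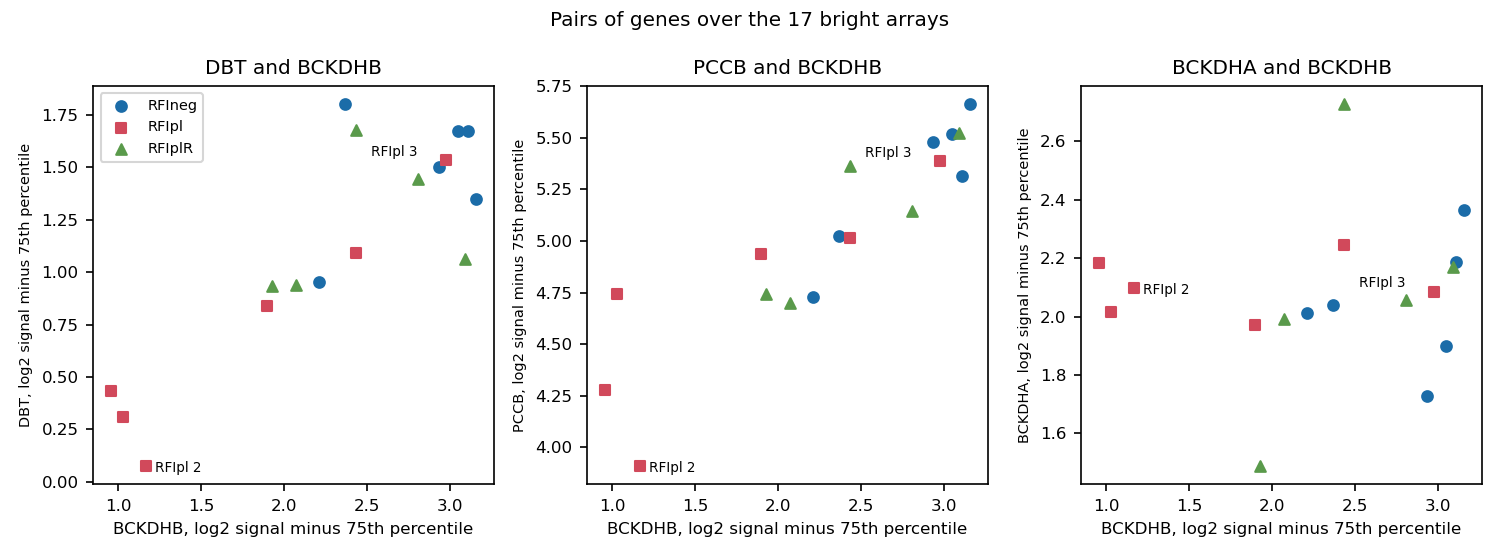
Log2 signal relative to the 75th percentile of DBT, PCCB and BCKDHA against that of BCKDHB over the 17 bright arrays, each gene at its brightest probe on average. There is 1 point per pig and a marker shape for each group. DBT and PCCB climb with BCKDHB (r = 0.85 and 0.90) and BCKDHA does not (r = 0.12); RFIpl 2 sits at the low end and RFIpl 3 among the RFIneg pigs.

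The named genes whose pattern over the bright arrays was most like the 6 member genes were PRDX6, LOC100154081, SLC38A3, CS and DNAJC12. PRDX6, a peroxiredoxin, had a median r of 0.90 with the 6 genes (0.86 without RFIpl 2), and CS, the citrate synthase of the mitochondrial matrix, 0.89 (0.84). SLC38A3, a glutamine transporter, stood at 0.89 and DNAJC12, a co-chaperone, at 0.88. These are descriptions over 17 arrays and 10212 named probes, and the lowest r of each with any of the 6 genes was 0.02 to 0.15.

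Of 32 further genes of the pathway, its transporters and its nitrogen partners, 20 were on the array and 19 were kept. Without a block none was called in any comparison. With brightness as a block 6 of 19 were higher and none lower in RFIneg against RFIpl, where 4.29% of all kept probes were called higher. In RFIplR against RFIpl 4 were higher and none lower, where 5.8% of all kept probes were called higher, and none passed between RFIneg and RFIplR. The median over the 19 genes was 0.26 in RFIneg against RFIpl and 0.16 in RFIplR against RFIpl with the block.

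KLF15, a transcription factor known to act on genes of branched-chain amino acid breakdown, had the lowest adjusted p of these genes in RFIneg against RFIpl. Over the bright arrays it lay at 3.57, 3.96 and 4.15 in RFIneg and at 2.42, 2.63 and 4.03 in RFIpl, where RFIpl 3 was again the highest. The RFIplR arrays ran from 3.19 to 4.12, with a median of 3.83. KLF15 rose by 0.95 ± 0.19 (SE) in RFIneg against RFIpl (limma with the block, adjusted p = 0.0067) and by 0.78 ± 0.19 in RFIplR against RFIpl (adjusted p = 0.014). Both calls held with any 1 array left out. Without the block its adjusted p was 0.977 and 0.999, at 0.95 and 0.48. Blocking on slide as well gave 0.052 and 0.047.

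OXCT1, which activates ketone bodies for oxidation, rose by 0.81 in RFIneg (adjusted p = 0.024) and by 0.88 in RFIplR (adjusted p = 0.012) against RFIpl with the block. The former call was lost without RFIneg 3 or RFIpl 1 (highest adjusted p 0.055). ECHS1, the enoyl-CoA hydratase shared by the isoleucine and valine branches, rose by 0.53 (adjusted p = 0.041) and 0.56 (adjusted p = 0.025). GLUD1, which releases ammonia from the glutamate that transamination forms, rose by 0.37 (adjusted p = 0.026) and 0.34 (adjusted p = 0.029). AUH, a hydratase of the leucine branch, rose by 0.62 (adjusted p = 0.034), and MMAB, which makes the cobalamin cofactor of the last propionate step, by 1.06 (adjusted p = 0.032). The last 2 were called in RFIneg against RFIpl only, which does not show that they differ from the other comparison.

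With 1 array left out, the RFIneg against RFIpl calls remained in 13 of 24 fits for ECHS1, 15 for AUH, 17 for MMAB and 21 for GLUD1. All 4 were lost without RFIpl 4, with highest adjusted p of 0.089 for ECHS1, 0.079 for AUH and 0.072 for MMAB. For GLUD1 RFIneg 3 and RFIpl 1 did the same. AUH, ECHS1 and MMAB were also each lost without RFIneg 2, 3, 4 or 5 or RFIpl 1 or 2. Beyond these, AUH was lost without RFIneg 7 or RFIpl 8, and ECHS1 without RFIneg 1 or 7 or RFIpl 5 or 8. In RFIplR against RFIpl the ECHS1 call was lost without RFIpl 5 or RFIplR 7, and that of GLUD1 without RFIpl 1, 4 or 6 or RFIplR 4, 5 or 7. Blocking on slide as well, none of OXCT1, ECHS1, GLUD1, AUH and MMAB passed in RFIneg against RFIpl (adjusted p 0.079 to 0.13), nor did OXCT1, ECHS1 and GLUD1 in RFIplR against RFIpl (0.062 to 0.085). DLD, the E3 subunit that BCKDHA, BCKDHB and DBT depend on, differed by 0.19 ± 0.16 (adjusted p = 0.517) in RFIneg against RFIpl.

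Markers of several cell types were called beside these genes with the brightness block, and none was called without it. With the block 4.29% of all kept probes were called higher and 2.31% lower in RFIneg against RFIpl. In RFIplR against RFIpl these shares were 5.8% and 4.52%. Of the 9 measured of 10 adipocyte markers, 4 rose in RFIneg against RFIpl with the block, namely CIDEC by 0.75, LIPE by 0.55, PLIN1 by 0.48 and ADIPOQ by 0.27. Against RFIpl, 2 rose in RFIplR, PLIN1 by 0.39 and ADIPOQ by 0.29. The summed adipocyte signal over the bright arrays ran from 1129 to 1477 in RFIneg, 874 to 1401 in RFIpl and 1153 to 1370 in RFIplR. Over 4 of 10 macrophage markers the bright arrays gave 4.72 to 13.5, 8.34 to 20.2 and 4.59 to 17.9 in the same order. None of the 4 macrophage markers was called. Of 6 endothelial markers VWF rose by 0.50 in RFIneg, and in RFIplR PECAM1 and CDH5 rose by 0.50 and 0.52 while KDR fell by 0.74, each against RFIpl. In each of these 2 comparisons 4 of the 6 lay above 0 and the others below, so the endothelial markers did not move as 1 set. Of the 4 measured fibroblast markers COL1A2 fell by 0.72 in RFIneg and by 0.64 in RFIplR against RFIpl, where 1 and 0 of the 4 lay above 0. The part of these markers in the differences of the pathway was not tested. Leaving out RFIpl 2, the array with the highest muscle signal, left both ALDH6A1 probes past the threshold, at blocked differences of 0.65 and 0.72 in RFIneg against RFIpl. Without RFIpl 1 as well, the next highest in muscle signal at 43.5, 1 of 18 member probes was called in each comparison with RFIpl. The shares of all kept probes called were then 1.92% and 6.66%. Neither fit takes account of the adipocyte, macrophage, endothelial or fibroblast markers.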

How the data were processed

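Scanner files of 24 Agilent 1-colour arrays (8 per group) were used. Per the file headers, the scanner software was Feature Extraction 10.7.3.1, and the deposited intensity used is its background-subtracted, spatially detrended signal, not scaled between arrays. The deposited flags mark spots well above background or non-uniform. The value table the authors deposited is on the log2 scale, with 24675 non-control rows and column medians near 0. For probes spotted once, each column equalled log2 of the processed intensity less a constant (r of 1). The submitters' processing notes name R 2.10.0. The genome build was not given in the sources used here, so no coordinates are printed.

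Here, log2 of the processed intensity (floor 1) minus each array's 75th percentile was fitted with limma 3.58.1 (lmFit, eBayes; R 4.3.3) over all 24 arrays. P-values are two-sided, adjusted by Benjamini-Hochberg over all 28606 kept probes, with a threshold of 0.05. They are set against the spread between arrays, with 1 array per pig. Differences between pigs and technical error between arrays cannot be told apart in that spread. A probe was kept when well above background on at least 6 of 8 arrays of a group and missing on at most 6 arrays. The reference probe of a gene is its kept probe with the highest mean. Named genes were all members, further pathway genes called in a fit with or without the brightness block, and the 5 most alike genes. DLD was named as a subunit of the complex. Markers were named when leading or outlying in signal, or because they were called with the brightness block. Accessions were named through the RefSeq gene table of assembly Sscrofa11.1 (7369 probes by accession, 1502 by gene identifier, 3587 by the file's symbol; 31103 had no name). Correlations used 100000 resamples. The fit was tested on simulated data. Python 3.11.15, pandas 2.3.3 and matplotlib 3.10.9 drew the figures. Precision is limited by the number of arrays. The members, lists and alternatives were chosen with earlier results of these data known.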

Additional observations from a re-analysis of the deposited data

How the results depend on the processing

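The median difference over the 6 genes kept its sign under all 22 other settings: 0.40 to 0.79 in RFIneg against RFIpl, 0.13 to 0.40 in RFIneg against RFIplR and 0.02 to 0.61 in RFIplR against RFIpl. With 1 array left out it was 0.56 to 0.77, 0.15 to 0.50 and 0.20 to 0.53, and the unblocked count stayed at 0 of 18. Whether the replicate numbers pair the pigs was not given. Correlations of same-numbered deviations ran from -0.82 to 0.88. They were negative where 1 array of the pair was bright and the other dim, and positive otherwise, so they cannot decide pairing. The fit with the replicate block alone called 0 of 18 in each comparison, as did the fit without a block. With the replicate and brightness blocks together it called 2 and 2, in RFIneg against RFIpl and RFIplR against RFIpl. In the same order, the counts moved from 0 and 0 to 4 and 3 with the brightness block, 2 and 2 with slide and brightness blocks, 1 and 1 within the bright arrays, 12 and 4 with array weights, 2 and 2 with the brightness block and RFIpl 2 left out, and 1 and 1 with RFIpl 1 and 2 left out. With the brightness block they were 1 and 2 after normexp background correction, 4 and 3 after quantile scaling and 5 and 4 after median scaling. The share of all kept probes called also moved. It was 10.5% and 10.3% with array weights, 1.45% and 5.9% with slide and brightness blocks and 1.03% and 3.26% within the bright arrays. With the brightness block it was 5.16% and 10.9% without RFIpl 2, and 1.92% and 6.66% without RFIpl 1 and 2. With the replicate block added to brightness it was 3.81% and 6.45%. With the brightness block it was 1.3% and 2.68% after normexp, 5.8% and 9.13% after quantile scaling and 7% and 10.9% after median scaling. Under normexp without a block the median of all probes stood at -0.19 in RFIneg against RFIplR and 0.20 in RFIplR against RFIpl, against -0.01 and 0.01 in the report. BCKDHA changed sign between settings (-0.30 to 0.09 in RFIneg against RFIpl), never past the threshold. The cause of these moves was not tested. The brightness block with another scaling or with the replicate number was added after the data were seen.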
